A study of Homo sapiens with 18 samples.

Results

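The HIST1 blocks are a pair of stretches of human chromosome 6 in which the replication-dependent histone genes lie close together. They were taken by position, as chr6:26010000-26290000 (280 kb) and chr6:27770000-27870000 (100 kb) of the hg19 genome build, the build of the peak lists. A peak belonged to a block when it overlapped it by at least 1 bp, and 342 of the 501863 peaks in 18 lists did so. The libraries came from chromatin immunoprecipitation sequencing (ChIP-seq) of NB4, an established line of human acute promyelocytic leukemia, so all values describe 1 cell line. Maltonis, a synthetic maltol derivative, had been given at 10 µM for 24 h to the exposed cells, the other cells were untreated, and no other agent separated the groups. For each of H3K4me3, H3K27ac and H3K9me3 there were 3 untreated and 3 maltonis libraries, and peaks had been called in each library alone. The comparison asked how the histone gene blocks were marked in untreated NB4 cells and whether the exposed cells differed.

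Replication-dependent histone genes encode the H1 linker histones and the H2A, H2B, H3 and H4 core histones. They are transcribed mainly in S phase, when new nucleosomes are needed, from many small genes without introns whose mRNAs end in a stem-loop in place of a poly(A) tail. H3K4me3 marks active promoters, H3K27ac marks active promoters and enhancers, and H3K9me3 is best known from heterochromatin. A peak list from a cell population does not tell more cells carrying a mark from more mark per cell.

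In RefSeq gene order, the run of histone genes named for the first block held 32 genes and that for the second block 16. Together these were 6 H1, 9 H2A, 12 H2B, 10 H3 and 11 H4 genes. Promoter sequences were matched for 44 of the 48. H4C1, H4C3, H3C11 and H3C12 had no entry. The positions of these sequences refer to GRCh38.p14 and cannot be set beside the hg19 peak positions. No hg19 annotation was used, so no peak below is assigned to a gene.

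One promoter of each kind is shown because the blocks combine a few recurrent promoter designs. The H1, H3 and H4 genes are the first of their class in the first run with a listed sequence, and H2AC6 belongs to the first divergent H2A and H2B pair, with H2BC4. Each line gives the 250 bases before the gene start, 5′ to 3′ on the strand of the gene. Capitals mark the TATA box (TATAAA), the CCAAT box (CCAAT), the octamer (ATTTGCAT) and the H1 box (AAACACA), each searched on both strands. On the other strand the TATA box reads TTTATA, the CCAAT box reads ATTGG, the octamer reads ATGCAAAT and the H1 box reads TGTGTTT. None of the 4 contains another.
H1-1, chr6:26017788-26018037, minus strand: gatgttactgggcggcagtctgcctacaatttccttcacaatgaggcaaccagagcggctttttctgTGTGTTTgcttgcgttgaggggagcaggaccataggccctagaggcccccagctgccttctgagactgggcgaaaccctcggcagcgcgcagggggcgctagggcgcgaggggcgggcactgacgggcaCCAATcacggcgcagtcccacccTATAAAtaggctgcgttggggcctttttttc
H2AC6, chr6:26123922-26124171, plus strand: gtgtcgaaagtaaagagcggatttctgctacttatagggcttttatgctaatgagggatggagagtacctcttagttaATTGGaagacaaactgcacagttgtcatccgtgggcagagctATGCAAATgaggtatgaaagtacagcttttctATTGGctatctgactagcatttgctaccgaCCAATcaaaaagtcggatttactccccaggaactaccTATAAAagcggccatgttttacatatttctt
H3C1, chr6:26020201-26020450, plus strand: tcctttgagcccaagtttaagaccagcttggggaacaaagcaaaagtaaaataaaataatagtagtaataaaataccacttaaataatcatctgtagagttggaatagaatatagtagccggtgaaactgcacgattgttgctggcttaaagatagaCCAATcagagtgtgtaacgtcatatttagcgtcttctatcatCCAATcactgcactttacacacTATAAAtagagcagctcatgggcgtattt
H4C2, chr6:26027284-26027533, minus strand: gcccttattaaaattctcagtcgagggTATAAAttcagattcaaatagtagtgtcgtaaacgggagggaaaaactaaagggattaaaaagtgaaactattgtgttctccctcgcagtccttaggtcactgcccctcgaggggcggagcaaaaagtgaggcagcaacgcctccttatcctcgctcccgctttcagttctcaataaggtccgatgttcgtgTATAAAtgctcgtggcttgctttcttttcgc

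The TATA box letters were found in 28 of the 44 promoters (63.6%), against 10.8% of all 34943 RefSeq promoters of the same length. The CCAAT box letters were found in 37 (84.1%, against 32.0%). H4 promoters stood apart here, since 2 of 9 held CCAAT and every H1, H2A, H2B and H3 promoter did. The octamer was found in 7 of 9 H2A and 9 of 12 H2B promoters, in 1 of 8 H3 promoters and in no H1 or H4 promoter, against 1.63% of all promoters. The H1 box was found in 6 of 6 H1 promoters and in no promoter of the other classes, against 4.83% of all promoters. In 7 divergent H2A and H2B pairs the upstream windows of both genes shared between 193 and 245 bases, so their motifs are partly the same bases. These matches describe letters and do not show that a factor was bound.

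**Figure D1:**
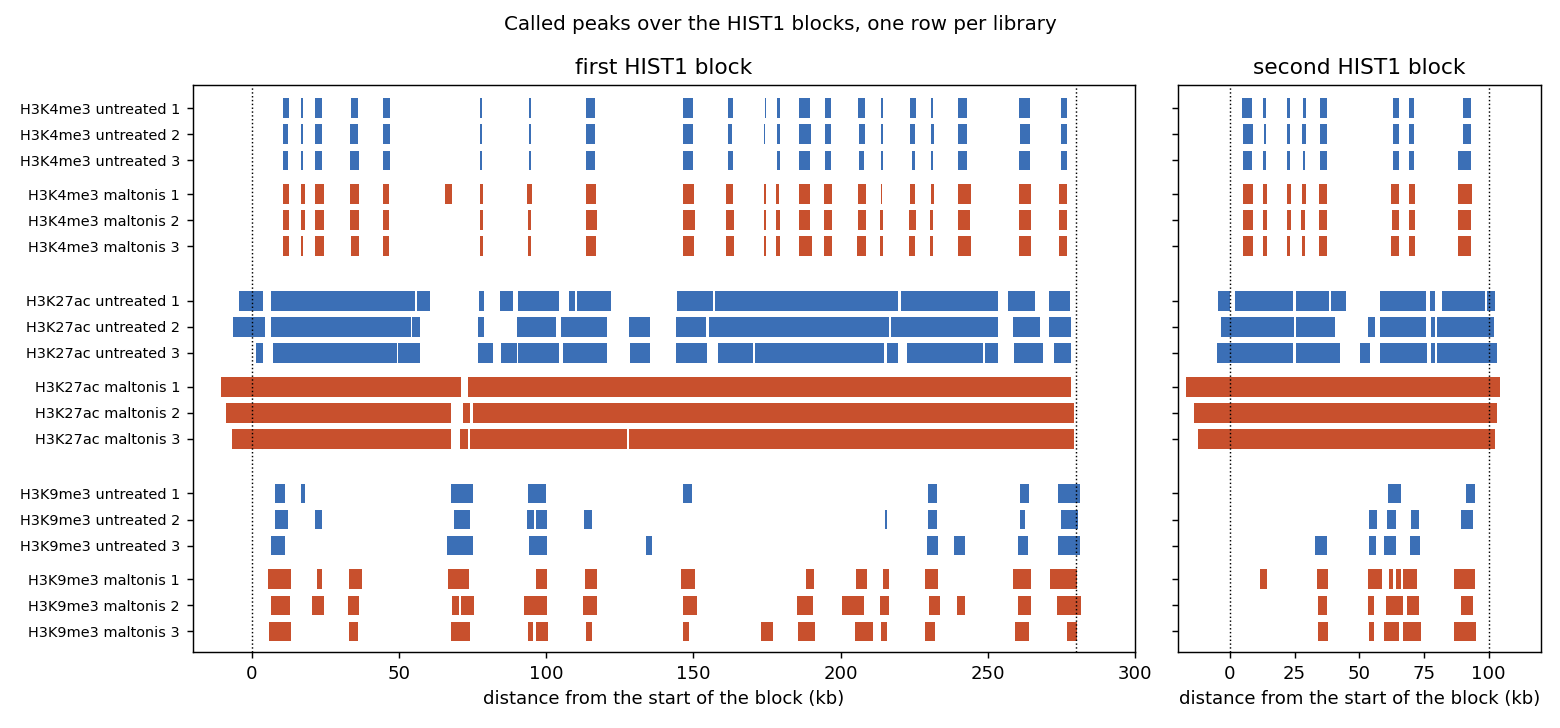
Peaks of the 18 libraries over the first (left) and second (right) HIST1 block, 1 row per library, with the distance from the start of the block in kb on the x axis, untreated in blue, maltonis in red and block ends as dotted lines. H3K4me3 peaks stayed at nearly the same places, and H3K9me3 peaks went from 10 to 14 up to 19 or 20. H3K27ac peaks numbered 18 to 22 in untreated and 3 to 5 in maltonis libraries, most of the latter long domains.

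The layout of H3K27ac differed between the conditions. Untreated libraries had separate H3K27ac peaks along the blocks, whereas in maltonis libraries nearly the whole of both blocks lay under a few domains, and the reads in peaks rose 2.19-fold. The number of peaks was 21, 18 and 22 in untreated replicates 1, 2 and 3, and 3, 4 and 5 in maltonis replicates 1, 2 and 3. The conditions did not overlap (exact two-sided permutation test, p = 0.1). With 3 libraries against 3 this is the smallest p the test allows, so no comparison of library values below could reach 0.05, and whether the conditions overlapped is stated instead.

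The H3K27ac-covered length was 292602, 298602 and 298401 bp in untreated libraries and 375602, 374202 and 375002 bp in maltonis libraries. This was 78.0% ± 0.90 of the blocks (SD, n = 3) before and 98.7% ± 0.18 (SD, n = 3) after, with no overlap (exact permutation test, p = 0.1). With peaks wholly inside a block alone the difference turned to -57867 bp, since the maltonis domains run past the block ends. The genome moved the other way, since H3K27ac covered 7.41% ± 0.21 of it before and 5.93% ± 0.23 after (SD, n = 3). The blocks were covered 10.5 ± 0.18 times as densely as the genome in untreated and 16.7 ± 0.66 times with maltonis (SD, n = 3), again without overlap (exact permutation test, p = 0.1).

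**Figure D2:**
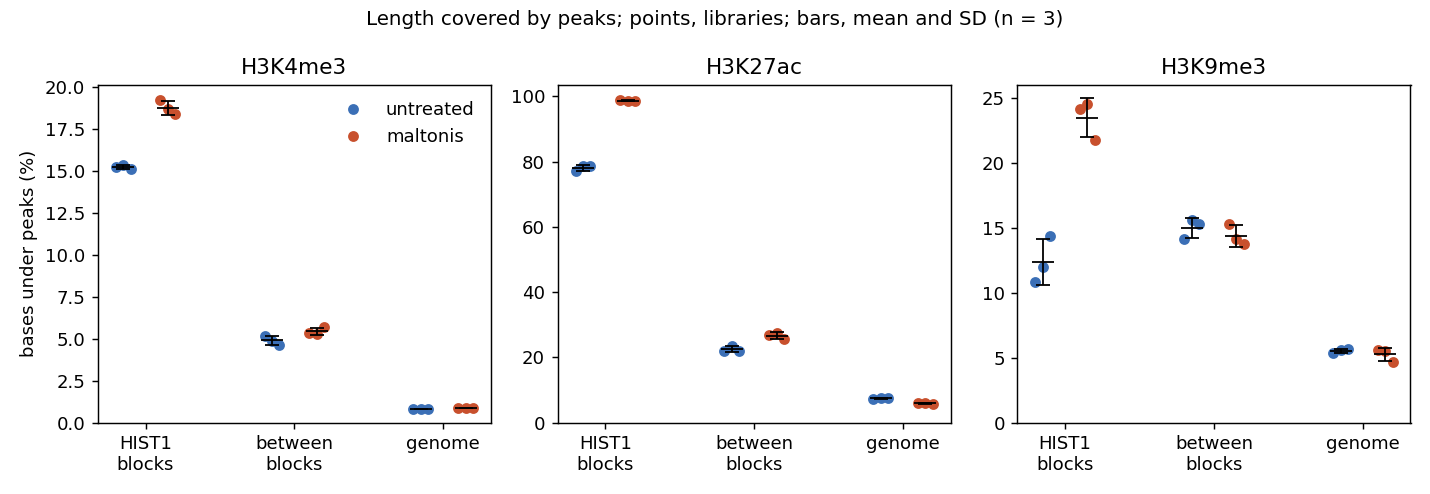
Percent of bases under peaks of each mark (y axis) in the HIST1 blocks, in the 1.48 Mb between the blocks and in the genome (x axis), with untreated libraries in blue, maltonis libraries in red, and the mean and SD of 3 libraries in black. H3K27ac rose from 78.0% to 98.7% in the blocks and from 22.5% to 26.7% between them, while it fell from 7.41% to 5.93% in the genome. H3K9me3 rose from 12.4% to 23.5% in the blocks.

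The median width of an H3K27ac peak in the blocks was 9000, 11900 and 10200 bp in untreated libraries and 121400, 96800 and 74200 bp in maltonis libraries. The widest peak measured 62.0, 61.2 and 44.0 kb in untreated libraries and 204.6, 204.2 and 151.2 kb in maltonis libraries. By width this peak ranked 1, 2 and 4 among all peaks of its maltonis list, and 50, 59 and 149 in the untreated lists. By reads, the strongest peak of the blocks ranked 34, 45 and 51 in the untreated lists and 1 in each maltonis list. The H3K27ac peak with the most reads in every maltonis library therefore lay over a HIST1 block.

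In the second block each maltonis library had a single H3K27ac peak that ran past both block ends, of 121.4, 117.0 and 114.8 kb. The untreated libraries had 8, 6 and 6 peaks there. In the first block maltonis replicate 1 had 2 peaks, chr6:25999401-26081000 and chr6:26083601-26288200. Replicate 2 had 3, the longest of them chr6:26085001-26289200, and replicate 3 had 4, with an extra break between chr6:26084001-26137600 and chr6:26138201-26289400. All 3 maltonis libraries kept a break near the same place, between a peak end at 26077600 and a peak start at 26085001. The breaks held small peaks of 2.2 and 2.6 kb with 78 and 71 reads in replicates 2 and 3.

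**Figure D3:**
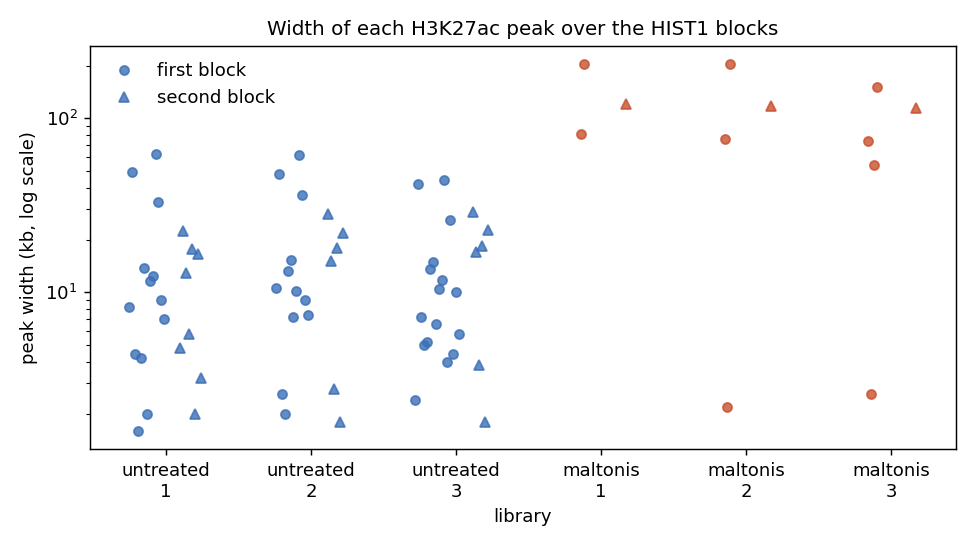
Width of each H3K27ac peak over the HIST1 blocks in kb on a log axis, by library, with circles for the first and triangles for the second block. The widest untreated peak is 62.0 kb, and every maltonis library has a second-block domain above 114 kb and a first-block domain above 151 kb.

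Between the untreated peaks, 15 stretches had no H3K27ac peak in any untreated library. They added up to 54.0 kb, or 14.2% of the blocks. The longest was chr6:26070601-26086800 (16.2 kb), which held an H3K9me3 peak in all 6 H3K9me3 libraries and contained the break that remained in maltonis libraries. Others of over 5 kb were chr6:26145401-26154200, chr6:26132001-26138200 and chr6:27814801-27820200. In maltonis libraries the same search left 1 stretch of 600 bp, at the end of the first block. Spacing between neighbouring H3K27ac peaks had a median of 2000, 1900 and 2900 bp in untreated libraries and 2600, 2500 and 600 bp in maltonis libraries, which overlapped (exact permutation test, p = 0.8). The maltonis medians rest on between 1 and 3 gaps per library, each from the end of a peak to the start of the next in the same block.

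The deposited reads of the H3K27ac peaks in the blocks were 51334, 52852 and 52039 in untreated libraries and 106332, 121609 and 114193 in maltonis libraries, with no overlap (exact permutation test, p = 0.1). Because the called length grew too, reads per kb of called length were compared. These were 170 ± 0.70 in untreated and 284 ± 21.8 with maltonis (SD, n = 3), a 1.68-fold difference without overlap (exact permutation test, p = 0.1). In the whole lists the same quantity was 88.8 ± 0.42 and 108 ± 9.1 (SD, n = 3). The blocks had 1.91 ± 0.017 times the list value in untreated and 2.64 ± 0.063 times with maltonis (SD, n = 3, no overlap, exact permutation test, p = 0.1). All 6 lists held between 17974940 and 20773316 reads in peaks, so the H3K27ac counts of the blocks had a small counting error.

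Merging the peaks of all 6 libraries gave 1 H3K27ac region per block, chr6:25999401-26289400 and chr6:27752801-27874400. Both were called in all 6 libraries, against 54.2% of regions genome-wide, and both were longer in every maltonis library, as were 3.84% of the 20018 such regions of the genome. 28.2% were shorter. Both regions also had fewer peaks in every maltonis library, a combination found in 0.0500% of the regions. The merging shaped both regions, since the long maltonis domains joined separate untreated peaks. In the first region these were 13, 12 and 17 peaks. A region with 1 untreated peak cannot have fewer. Untreated called length had a median of 6200 bp genome-wide and 157500 bp here, so the genome-wide shares describe shorter regions and are not a like comparison. In the first region the peaks held 33386, 34275 and 33851 reads in untreated and 67939, 77668 and 72980 in maltonis libraries. The log2 fold change was 1.15 (SE 0.012, edgeR quasi-likelihood test, adjusted p = 2.9e-11). In the second region the reads were 18396, 19016 and 18815 against 38393, 43941 and 41299, and the log2 fold change was 1.18 (SE 0.012, edgeR quasi-likelihood test, adjusted p = 2.9e-11). A region passed when its adjusted p was 0.01 or lower and its log2 fold change reached 0.58 in size. Both passed, as did 8.18% of all regions with more reads and 19.2% with fewer. By fold change they ranked 202 and 189 of 20018. With the called length as an offset the log2 fold changes were 0.62 and 0.70 and both still passed, with 2.13% of all regions passing in that direction.

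H3K27ac reads rose in the 1.48 Mb between the blocks too, by less than in the blocks. This stretch holds a further run of 5 histone genes in RefSeq order among other genes. A peak that reached into a block was counted with the block alone, so its reads, widths and peak numbers here leave out the flanks of the block domains. Its peaks held 30674, 32785 and 31588 reads in untreated and 47890, 55063 and 52021 in maltonis libraries, a 1.63-fold rise without overlap (exact permutation test, p = 0.1). With reads taken as a share of the list, the ratio of the blocks to this stretch rose from 1.64 ± 0.031 to 2.21 ± 0.013 (SD, n = 3, no overlap, exact permutation test, p = 0.1). Per kb of called length the ratio was 1.76 ± 0.028 and 2.09 ± 0.073 (SD, n = 3, no overlap, exact permutation test, p = 0.1). Coverage rose here too, from 22.5% ± 0.89 to 26.7% ± 0.99 of the stretch (SD, n = 3, no overlap, exact permutation test, p = 0.1). This coverage includes the flanks of the block domains. Relative to the genome it was 3.04 ± 0.076 and 4.50 ± 0.079 times as dense (SD, n = 3, no overlap). A gain in coverage against a falling genome was therefore not particular to the blocks. Peak number did not follow, since the stretch had 63 ± 2.0 H3K27ac peaks in untreated and 61.3 ± 6.7 with maltonis (SD, n = 3, exact permutation test, p = 0.8). Its median peak width was 3733 ± 306 and 4300 ± 557 bp (SD, n = 3, exact permutation test, p = 0.3).

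H3K4me3 formed a row of narrow peaks whose places were nearly the same in both conditions, while the peaks became longer and their fold enrichment lower. The libraries had 29, 29 and 28 peaks in untreated and 30, 29 and 29 in maltonis cells (exact permutation test, p = 0.6). They covered 57939, 58318 and 57465 bp against 72996, 70957 and 69970 bp, which is 15.2% ± 0.11 and 18.8% ± 0.41 of the blocks (SD, n = 3). The conditions did not overlap (exact permutation test, p = 0.1). The direction was the same in both blocks, the first going from 14.3% ± 0.41 to 17.7% ± 0.48 and the second from 17.9% ± 0.76 to 21.8% ± 0.32 (SD, n = 3).

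Relative to the genome, H3K4me3 coverage of the blocks was 19.1 ± 0.25 times as dense in untreated and 22 ± 0.48 times with maltonis (SD, n = 3, no overlap, exact permutation test, p = 0.1). The median peak width was 1988, 1937 and 1901.5 bp in untreated and 2415.5, 2457 and 2465 bp in maltonis libraries. Whole lists had medians of 1280 ± 17 and 1551 ± 27 bp (SD, n = 3), so the direction was that of the lists. Between the blocks the medians were 1072.5 ± 43 and 1354.5 ± 51 bp (SD, n = 3), a 1.26-fold rise as in the blocks. Within each list the median peak of the blocks stood at the 80.6th ± 0.62 width percentile in untreated and the 86.5th ± 0.48 with maltonis (SD, n = 3, no overlap, exact permutation test, p = 0.1). The peaks of the blocks were wide for H3K4me3 in both conditions.

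The fold enrichment over the local background, as given by the peak caller, fell in median from 3.56 ± 0.053 to 3.01 ± 0.079 (SD, n = 3, no overlap, exact permutation test, p = 0.1). The lists as a whole went from 4.03 ± 0.068 to 3.82 ± 0.10 (SD, n = 3). The median peak of the blocks stood at the 40.1st ± 1.1 fold percentile of its list in untreated and the 25.9th ± 0.73 with maltonis (SD, n = 3, no overlap, exact permutation test, p = 0.1). Ranked by the -log10 q value, the median peak stayed near the middle, at the 48.0th ± 0.93 and 48.3rd ± 2.5 percentile (SD, n = 3, exact permutation test, p = 0.9). In the medians over the peaks of the blocks, fold thus fell while length rose. The H3K4me3 lists hold no read counts, so reads were not compared.

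Median spacing between neighbouring H3K4me3 peaks was 8436, 8396 and 8984 bp in untreated and 8508.5, 8545 and 8697 bp in maltonis libraries, and these overlapped (exact permutation test, p = 1). The order is different within each block. In the first block the median gap was 9458 ± 226 and 8859 ± 50 bp, and in the second 5544 ± 85 and 5128 ± 109 bp (SD, n = 3), lower in every maltonis library (exact permutation test, p = 0.1 in each). A gap ran from the end of a peak to the start of the next, so longer peaks at unchanged places have smaller gaps. Median peak width rose from 1905 to 2446 bp in the first block and from 2050 to 2567 bp in the second. Distances between peak centres were not tested. By these gaps the second block was the more tightly spaced in both conditions. The widest gap of a library measured between 29609 and 30666 bp.

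Merged over the 6 libraries, the blocks held 30 H3K4me3 regions, 22 in the first and 8 in the second. Of these, 28 were called in all 6 libraries, against 46.1% of regions genome-wide. The other 2 were chr6:26075608-26078026, called in maltonis replicate 1 alone, and chr6:26183963-26184696, called in 2 untreated and 3 maltonis libraries. No region was called in the 3 untreated libraries alone, against 1.66% genome-wide, or in the 3 maltonis libraries alone, against 0.836%. Of the 28 regions, 16 were longer in every maltonis library, close to the genome-wide share of 54.8%, and none was shorter, against 3.99%. The median difference was 427 bp over the 28 regions and 209.5 bp over the 12470 regions called in all 6 libraries. Fold enrichment was lower in every maltonis library in 22 of the 28, against 52.8% genome-wide, and higher in none, against 5.24%.

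**Figure D4:**
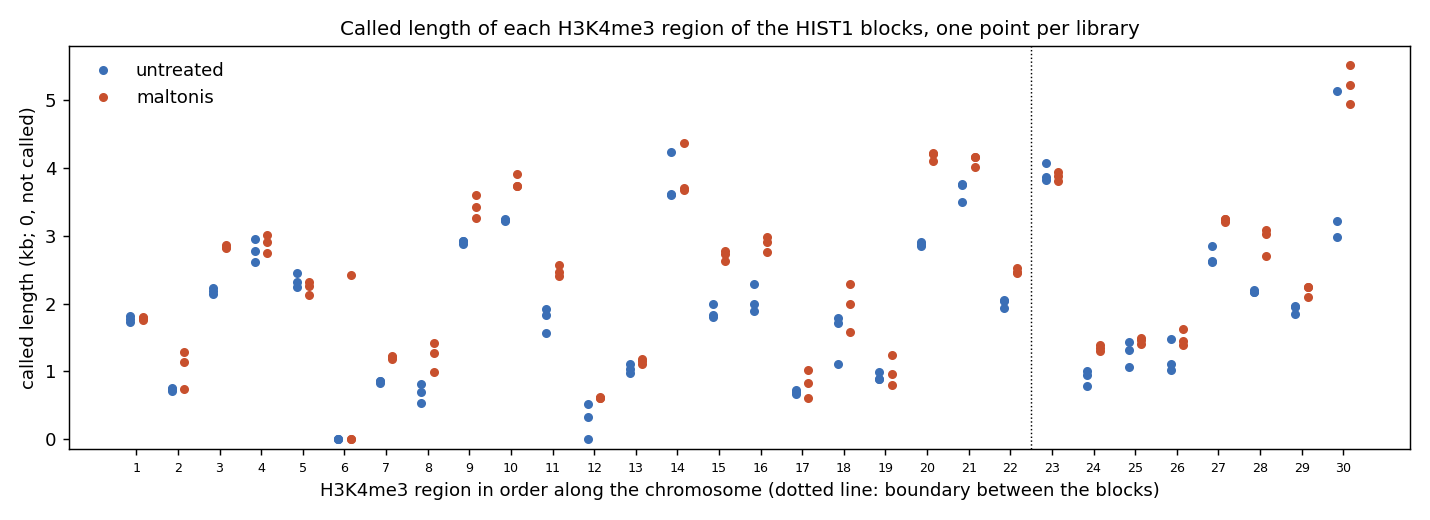
Called length in kb (y axis) of the 30 H3K4me3 regions of the HIST1 blocks in order along the chromosome (x axis), 1 point per library, untreated in blue and maltonis in red. In 16 of the 28 regions called in every library all red points lie above all blue points, and in none do they all lie below.

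The widest H3K4me3 regions of the first block were chr6:26270438-26274728, chr6:26195751-26200144 and chr6:26249909-26254227. The last of these lengthened most in this block, from 2843, 2906 and 2878 bp to 4200, 4105 and 4225 bp, while its fold enrichment fell from 3.64 ± 0.15 to 2.73 ± 0.073 (SD, n = 3). The first measured 3766, 3494 and 3741 bp against 4158, 4013 and 4153 bp, and the second 3620, 4230 and 3603 bp against 3709, 3667 and 4365 bp. The first did not overlap between conditions and the second did. The lowest signed difference in mean length of this block, a decrease of 108 bp, was at chr6:26054420-26057025, with 2319, 2450 and 2250 bp against 2259, 2314 and 2122 bp, which overlapped.

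In the second block the widest regions were chr6:27858092-27863683, chr6:27774629-27778961 and chr6:27804238-27807604. The first had the largest mean difference, with 2984, 3215 and 5130 bp in untreated and 5521, 4942 and 5224 bp in maltonis libraries. It overlapped between conditions because untreated replicate 3 alone was as long as the maltonis libraries. At chr6:27774629-27778961, with the lowest signed difference of this block, the lengths were 4075, 3870 and 3823 bp against 3933, 3886 and 3813 bp. The third lengthened without overlap, from 2850, 2623 and 2607 bp to 3250, 3198 and 3243 bp. In every library 100% of the H3K4me3-covered bases of the blocks lay under H3K27ac peaks of the same condition and replicate number. No H3K4me3 peak of the blocks therefore lay outside H3K27ac in either condition. H3K27ac covered 78.0% of the blocks in untreated and 98.7% in maltonis libraries, so a high share would be found for most placements. How much overlap this coverage alone would give was not tested.

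H3K9me3 was present in the blocks in untreated cells and covered more of them in maltonis libraries. In whole lists the number of H3K9me3 peaks was lower, while their coverage of the genome overlapped between conditions. The blocks had 10, 14 and 12 peaks in untreated and 20, 20 and 19 in maltonis libraries (no overlap, exact permutation test, p = 0.1). The lists had 34720 ± 692 and 29710 ± 283 peaks (SD, n = 3). The covered length was 41200, 45400 and 54400 bp against 91600, 93200 and 82600 bp, or 12.4% ± 1.8 and 23.5% ± 1.5 of the blocks (SD, n = 3, no overlap, exact permutation test, p = 0.1).

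Relative to the genome, H3K9me3 coverage of the blocks was 2.23 ± 0.27 times as dense in untreated and 4.47 ± 0.19 times with maltonis (SD, n = 3, no overlap, exact permutation test, p = 0.1). The stretch between the blocks did not share this, with 15% ± 0.76 covered in untreated and 14.4% ± 0.83 with maltonis (SD, n = 3, exact permutation test, p = 0.4). The ratio of the blocks to it rose from 0.82 ± 0.099 to 1.63 ± 0.091 (SD, n = 3, no overlap, exact permutation test, p = 0.1).

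The H3K9me3 peaks of the blocks stood near the middle of their lists by strength. Their median island score stood at the 51st ± 8.7 percentile of its list in untreated and the 56.3rd ± 6.3 with maltonis (SD, n = 3, exact permutation test, p = 0.5). Reads per kb of called length were 17.7 ± 0.90 and 16.5 ± 0.78 (SD, n = 3, exact permutation test, p = 0.3), so over both blocks more length was called at a read density that overlapped between conditions. In the first block alone this density was lower in every maltonis library, 18.8 ± 1.1 against 16.9 ± 0.89 (SD, n = 3, exact permutation test, p = 0.1). The second block had 14.4 ± 1.4 and 15.8 ± 2.0, with overlap. Whole lists had 19.5 ± 0.18 and 18.7 ± 0.30, without overlap (SD, n = 3). The lists held between 2595814 and 3366296 reads in peaks, far fewer than for H3K27ac. Median spacing between neighbouring H3K9me3 peaks was 26700, 13200 and 17200 bp in untreated and 13600, 11000 and 13000 bp in maltonis libraries, which overlapped (exact permutation test, p = 0.2).

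Most H3K9me3 peaks of the blocks overlapped an H3K4me3 peak of the same condition and replicate number. This held for 9 of 10, 10 of 14 and 9 of 12 peaks in untreated and 17 of 20, 17 of 20 and 15 of 19 in maltonis libraries. The share was 78.8% ± 9.9 and 83.0% ± 3.5 (SD, n = 3, exact permutation test, p = 0.6). Over whole lists it was 7.90% ± 0.27 and 10.5% ± 0.24 (SD, n = 3). H3K4me3 covered 15.2% and 18.8% of the blocks but 0.80% and 0.85% of the genome, so far more H3K4me3 lay near each block peak. How much overlap this density alone would give was not tested. All but 1 peak in each untreated library and in maltonis replicate 2 also overlapped H3K27ac. Over whole lists between 21.5% and 22.1% did, while H3K27ac covered 78.0% and 98.7% of the blocks. H3K9me3 is usually kept apart from these marks, and these libraries come from populations of cells, so the overlap does not show the marks on the same chromosome copy.

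Merging gave 23 H3K9me3 regions, and 7 were called in all 6 libraries, against 30.3% genome-wide. These were chr6:26015401-26023400, chr6:26076401-26085400, chr6:26102401-26110600, chr6:26238601-26243600, chr6:26268601-26274800, chr6:26281001-26291800 and chr6:27829601-27836800. The first and the fifth were longer in every maltonis library, against 5.35% genome-wide, and none was shorter, against 5.48%. The first measured 3400, 4200 and 4800 bp in untreated and 8000, 6600 and 7600 bp in maltonis libraries. The fifth measured 3000, 1600 and 3200 bp against 6200, 4400 and 4800 bp. None of the 7 passed the read-count rule, against 0.253% of regions with more reads and 0.0141% with fewer.

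At an unadjusted p under 0.05 there were 3 of the 7, all with more reads, against 8.60% of regions genome-wide in that direction. The region chr6:26015401-26023400 had 71, 66 and 96 reads in untreated and 128, 137 and 136 in maltonis libraries (log2 fold change 0.91, SE 0.23, edgeR quasi-likelihood test, adjusted p = 0.086). At chr6:26268601-26274800 the reads were 43, 32 and 48 against 107, 71 and 76 (log2 fold change 1.16, SE 0.25, edgeR quasi-likelihood test, adjusted p = 0.0505). At chr6:27829601-27836800 they were 62, 63 and 86 against 97, 142 and 88 (log2 fold change 0.75, SE 0.25, edgeR quasi-likelihood test, adjusted p = 0.202). Fitted with called length as the offset, the 3 log2 fold changes were 0.051, 0.15 and 0.37 (edgeR quasi-likelihood test, adjusted p = 0.953, 0.828 and 0.479). The other 4 had log2 fold changes between -0.14 and 0.24 without the offset (SE 0.21 to 0.24). The region chr6:26076401-26085400, where H3K27ac domains broke, had 99, 110 and 143 against 118, 118 and 107 reads.

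Of the 16 regions not called in all 6 libraries, 13 were called in more maltonis than untreated libraries, against 29.9% of such regions genome-wide. 2 were called in fewer, against 56.6%. Of all 23 regions, 3 were called in all 3 maltonis libraries and no untreated one, against 0.781%, namely chr6:26042601-26047400, chr6:26195201-26201400 and chr6:26210601-26221000. Their reads in maltonis replicates 1, 2 and 3 were 86, 55 and 56, then 42, 86 and 79, then 65, 87 and 72. Each lay over an H3K4me3 region that was called in all 6 H3K4me3 libraries. No region was called in all untreated and no maltonis library, against 2.32% genome-wide.

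The other 10 with more maltonis callers included 3 that went from 1 untreated library to 3 in the first block, chr6:26122401-26127400, chr6:26155801-26161400 and chr6:26223401-26226400. In the second block chr6:27802801-27808000 went from 1 to 3, and chr6:27823201-27828800, chr6:27836801-27843800 and chr6:27856601-27865000 went from 2 to 3. The region chr6:26030601-26034600 went from 1 to 2, and chr6:26182801-26187000 and chr6:27781601-27784200 were called in 1 maltonis library alone. The 2 with fewer callers were chr6:26026801-26028000 and chr6:26143801-26145800, each in 1 untreated library, and chr6:26248601-26252200 was called in 1 library of each condition.

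**Figure D5:**
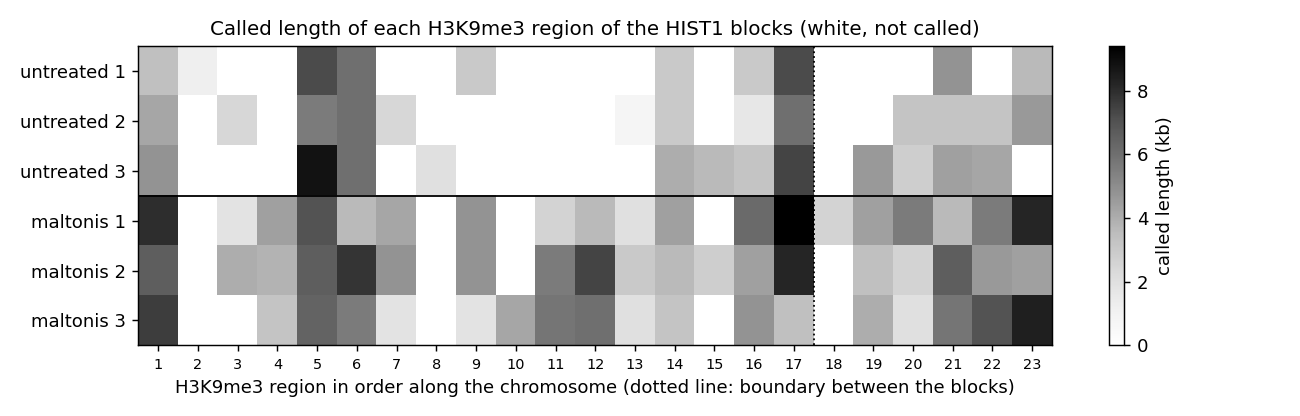
Called length in kb (grey scale) of the 23 H3K9me3 regions of the HIST1 blocks in order along the chromosome (x axis) in each library (rows), with white where the region was not called. 7 columns are grey in all 6 rows, and 3 are grey in the 3 maltonis rows alone.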

How the data were processed

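The authors aligned ChIP-seq reads of NB4 cells to hg19 with BWA, used SAMtools, and kept uniquely mapped reads. How many reads from near-identical histone gene copies this removed is not given in the sources used here, nor are tool versions. The authors called H3K4me3 peaks with MACS2, and the deposited lists give a score, a fold enrichment (a ratio to local background) and -log10 p and q values per peak. The authors called H3K27ac and H3K9me3 regions with epic2, while the labels name SICER. The deposited lists give whole-number read counts and an island score per region as called in that library, with edges on 200 bp windows. Whole-library read totals were not used here.

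Groups and replicate numbers came from the sample titles. The methods state triplicates, and p-values measure the spread between these libraries. The blocks, gene lists and tests were chosen with earlier results of these data known. Peaks were clipped at block ends for covered length and taken whole for width and reads, and a peak touching a block was not counted again between the blocks. The genome was chromosomes 1 to 22 and X, its length taken as the largest peak end per chromosome. Peaks of a mark were merged over 6 libraries at an overlap of 1 bp. Named regions were, per mark and block, the 3 widest, those with the highest and lowest signed difference in mean length, every region of 1 condition alone, every region passing the read-count rule and every H3K9me3 region. Library values were compared by exact permutation over 20 assignments. Summed deposited counts of regions called in all 6 libraries were tested with edgeR 4.0.16 (quasi-likelihood, TMM, Benjamini-Hochberg over all regions) in R 4.3.3, with DESeq2 1.42.0 as an alternative. On simulated counts for 20018 H3K27ac regions, 100% of 200 regions changed by a log2 fold of 1.5 were recovered with 0 false calls. On 14226 H3K9me3 regions, 100% of 200 were recovered with 4 false calls. The tested H3K9me3 regions of the blocks had log2 fold changes of 1.16 or lower. The simulated spread between replicates was a fixed setting, not estimated from these counts. Recovery at a wider spread or below a log2 fold of 1.5 was not tested. Other alternatives were the strongest 75% of peaks, equal peak numbers, stricter thresholds, peaks wholly inside a block, joining within 1000 bp, leaving out each library, and, chosen after seeing the data, each block alone and the peak subsets for the ratio to the genome. Sequences came from RefSeq (GRCh38.p14). For a gene with several listed starts the first was used.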

Additional observations from a re-analysis of the deposited data

How the results depend on the processing

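Of 369 recomputed values for 35 results, 349 were taken as the same as reported, including every count of H3K27ac regions with more reads, and every ratio to the genome. For a difference this meant the same side of the criterion and no reversed direction. A count of regions could change a little, as from 16 to 18 for longer H3K4me3 regions or from 2 to 3 for longer H3K27ac regions. Domains in maltonis libraries run past the block ends, so with peaks wholly inside a block the H3K27ac-covered length differed by -57867 bp, and the share of H3K4me3 bases under H3K27ac differed by -35.2 percentage points. That setting gave no H3K27ac spacing. Median spacing was the least stable result. For H3K4me3 it differed by -252 bp among the strongest 75% of peaks, without overlap, and by -126.5 to 167.5 bp without 1 library. It was higher in maltonis libraries without maltonis replicate 1 (15.7 bp) or untreated replicate 3 (167.5 bp). For H3K27ac it differed by 1133 bp among the strongest 75%, by 2133 bp under a stricter threshold and by -717 to 283 bp without 1 library, the highest without maltonis replicate 3. For H3K9me3 it differed by -6500 bp as reported, with overlap. Among the strongest 75%, equal numbers and a stricter threshold it differed by -15033, -10867 and -13700 bp, without overlap. It differed by -9417 to -2667 bp without 1 library, with overlap except when untreated replicate 2 or maltonis replicate 1 was left out. The cause was not tested.

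Regions shorter in every maltonis library numbered 0 to 1 for H3K4me3 and for H3K9me3 without 1 library, and longer H3K9me3 regions numbered 2 to 3, or 1 among the strongest 75% of peaks. The H3K9me3 log2 fold changes of the regions starting at 26076401, 26102401 and 26281001 changed sign without 1 library, ranging from -0.0054 to 0.23, -0.28 to 0.066 and -0.21 to 0.11, and none was called. Same-numbered libraries of the 2 conditions did not deviate together (correlations -0.019 to 0.030 over regions), so the numbers were not used as pairs. A fit with the replicate block gave log2 fold changes of 1.15 and 1.18 for the H3K27ac regions and changed no call, with 2 regions having more H3K27ac reads and 0 of the H3K9me3 regions called. Called H3K9me3 peaks in the blocks held between 26 and 155 reads, and the part of depth in the absence of calls was not tested.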
